A study of Mus musculus with 35 samples.

Results

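The 10 genes described here move sterols out of lysosomes and cells, store them as esters or carry them on lipoproteins, together with the liver X receptors (LXRs) that sense them. They were taken by name as the rows of Abca1, Abcg1, Nr1h2, Nr1h3, Npc1, Npc2, Soat1, Mylip, Apoc1 and Pltp among 55401 gene identifiers. All 10 were among the 17612 genes that passed the filter on low counts. mRNA was sequenced from CD45+ microglia, which were captured from digested whole brains on dishes coated with an antibody (immunopanning). The wild-type (WT) C57BL/6 mice were of both sexes. No mouse was treated or carried a transgene, and each library came from 1 mouse at postnatal day 6 (P6), P15 or 8 weeks. P6 had 4 females and 6 males, P15 had 6 of each sex and so did 8 weeks, which gave 10, 12 and 12 mice. The study removed 1 mouse as an outlier, which the text of the paper does not name. A further mouse, P6 female 6, was taken as that mouse and enters an alternative fit of all 35 mice.

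Cholesterol that enters a cell with lipoproteins or debris is freed in the lysosome and passed on by NPC2 and NPC1. Any excess is esterified by SOAT1 into lipid droplets or exported by ABCA1 and ABCG1 to apolipoproteins. Oxidised sterols bind LXRα and LXRβ, nuclear receptors that pair with RXR and switch on the exporters, Mylip, Apoc1 and Pltp. Microglia use this route when they clear myelin and dead cells.

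Levels are given as CPM, counts divided by the library's total on genes and put on a common scale, after TMM scaling, which corrects for differences in library makeup. Between 23316107 and 38965078 fragments per mouse fell on genes, so that 3 counts stood for at most 0.129 CPM. Changes are log2 fold changes from an edgeR quasi-likelihood fit, given with the standard error (SE) and a p adjusted by Benjamini-Hochberg over all genes tested, and called below 0.05. All 8 microglial markers, among them Tmem119 and P2ry12, were expressed, and their summed level ranged from 7901 to 14380 CPM at P6, 15860 to 32000 at P15 and 21780 to 30550 at 8 weeks. Markers of other cells were also present. The summed level of 6 endothelial markers was 44.9 to 121 CPM at P6 and 112 to 279 at 8 weeks, that of 7 astrocyte markers 500.2 to 1281 and 1930 to 5620, and that of 9 neural progenitor markers 661 to 2037 and 89.0 to 206. For 8 markers of border-associated macrophages it was 741 to 1613 CPM at P6 and 397 to 758 at 8 weeks. For 5 monocyte markers it was 43.4 to 106 and 26.3 to 73.0, and 3 of them rose while 1 fell. None of these markers was at 0 in every mouse. Of 10 genes of the response to dissociation, such as Fos and Jun, 7 rose and 1 fell from P6 to 8 weeks, and their summed level went from 5855 to 8403 CPM at P6 to 9715 to 20390 at 8 weeks. The part of that response in the results was not tested. In a further fit the average of the neuron and neural progenitor markers was a covariate (the neural marker covariate). The mean log2 CPM of the progenitor markers was 4.54 to 6.58 at P6 and 0.88 to 2.43 at 8 weeks, without overlap. That of the neuron markers was 4.77 to 6.31 and 2.82 to 4.93. The covariate is thus tied to age, and changes fitted with it from P6 to 8 weeks lean on extrapolation. A call lost or a sign turned in that fit cannot be told apart from this tie. In such bulk samples, fewer cells of a type and less RNA per cell cannot be told apart.

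Between P6 and 8 weeks, 6 of the 10 genes rose (Nr1h2, Nr1h3, Npc1, Soat1, Mylip and Pltp) and Apoc1 fell, against 37.8% of all genes tested that rose and 36.6% that fell. With the neural marker covariate 3 of the 10 rose and 4 fell, and under scaling by library size alone 3 fell. Mylip rose and Apoc1 fell by more than 2-fold, at an adjusted p below 0.05 for a change beyond that size (glmTreat), as did 11.5% and 12.4% of genes. Past 2-fold from P6 to P15, 1 of the genes fell (Apoc1) and 0 rose, beside 4.85% and 4.87% of all genes, and from P15 to 8 weeks 1 fell (Apoc1) and 0 rose, beside 3.07% and 1.2%. From P6 to P15, 5 genes rose (Nr1h2, Nr1h3, Npc1, Mylip and Pltp) and 2 fell (Abca1 and Apoc1), beside 30.4% and 31.4% of all genes. From P15 to 8 weeks Nr1h2 and Mylip rose and Apoc1 fell, beside 24.0% and 23.9%. The contrasts share mice, so they are not independent of each other. Under scaling by library size alone the median change of all genes shifted by -0.13 on the log2 scale from P6 to P15 and by -0.14 from P6 to 8 weeks.

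**Figure D1:**
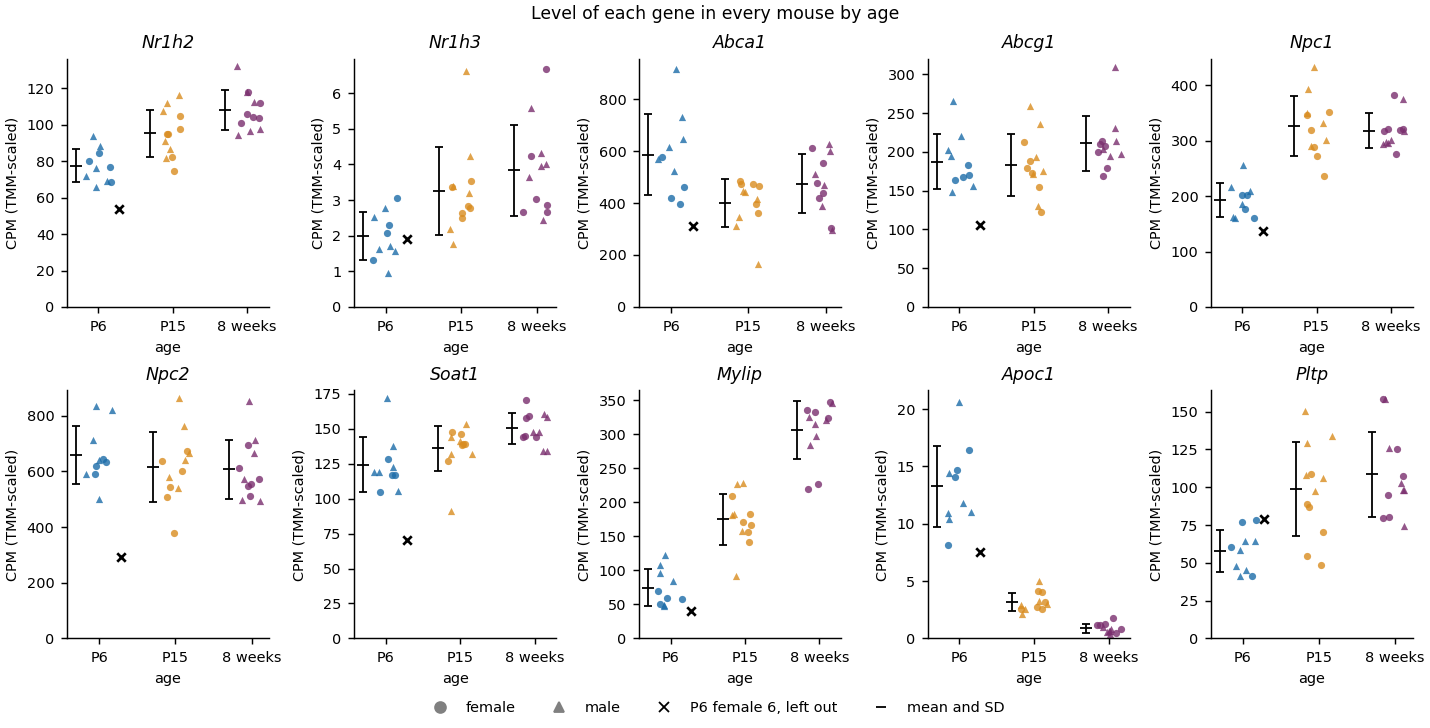
CPM of each gene in every mouse (circles for females, triangles for males, crosses for P6 female 6, bars for the mean and SD of the other mice) against age. Apoc1 fell from a mean of 13.2 to 0.892 CPM with no overlap between ages, Mylip rose from 74.4 to 306 CPM, and Npc2 kept a similar range at every age.

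The receptors differed widely in level. Nr1h2 encodes LXRβ, the broadly expressed form (chr7:44549616-44553951, minus strand, GRCm38). Its level was lowest at 65.9, median 76.8 and highest 93.9 CPM at P6, 74.7, 95.1 and 116 at P15, and 94.6, 105 and 132 at 8 weeks. Every 8-week mouse lay above every P6 mouse, while P15 overlapped both. The rise was 0.48 ± 0.08 (log2 fold change ± SE, adjusted p = 2.57e-06) from P6 to 8 weeks and 0.30 ± 0.08 (adjusted p = 0.0016) from P6 to P15. Neither call was kept with the neural marker covariate, at -0.03 (adjusted p = 0.889) and 0.08 (adjusted p = 0.424). The step from P15 to 8 weeks was small, at 0.18 ± 0.07 (adjusted p = 0.0422), and lost its call without P15 male 1 (0.17, adjusted p = 0.0764) or 8-week male 4 (0.15, adjusted p = 0.0553). It also lost it without any one of P6 females 1, 2 or 3, which are in neither of these groups, each at 0.16 with an adjusted p of 0.0634, 0.0611 and 0.0656, and with the neural marker covariate (-0.11, adjusted p = 0.385).

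Nr1h3 encodes LXRα, the form known from macrophages and liver (chr2:91184061-91202834, minus strand). Per kilobase of exon it was the rarer receptor at every age, with 30 to 100 counts per mouse at P6 and 72 to 243 at 8 weeks. Lowest, median and highest levels were 0.95, 1.90 and 3.06 CPM at P6, 1.77, 3.01 and 6.62 at P15, and 2.44, 3.81 and 6.67 at 8 weeks. The ages overlapped, and P15 male 1 and 8-week female 1 were the highest mice of their ages. Nr1h3 rose by 0.92 ± 0.22 (adjusted p = 3.35e-04) from P6 to 8 weeks and by 0.68 ± 0.22 (adjusted p = 0.00752) from P6 to P15. Its change from P15 to 8 weeks was 0.24 ± 0.20 (adjusted p = 0.320), but was called with the neural marker covariate (0.85, adjusted p = 0.0299), which also gave the larger changes of 1.92 at 8 weeks and 1.07 at P15 relative to P6. With the mean level of the endothelial markers as a covariate, the changes from P6 were 0.48 at 8 weeks (adjusted p = 0.124) and 0.41 at P15 (adjusted p = 0.135), so neither call was kept. The gene shares 34 bases of exon on its own strand with Gm13783, and fragments that fell on both may have gone uncounted.

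ABCA1 loads cholesterol and phospholipid onto lipid-poor apolipoproteins. Abca1 (chr4:53030787-53159895, minus strand) was the efflux transporter with the higher mean level per kilobase of exon at all 3 ages. The promoters of Abca1, Mylip and Pltp are shown because all 3 are classical LXR targets whose levels moved in different directions here. They run from 250 bases before to 50 after the RefSeq start (GRCm38.p6), which for Abca1 is chr4:53159846-53160145 on the minus strand, for Mylip chr13:45389492-45389791 on the plus strand and for Pltp chr2:164857659-164857958 on the minus strand. Capitals in Abca1 mark the best match, on the opposite strand, to the direct repeat that LXR and RXR are known to bind, 2 copies of AGGTCA with 4 bases between them. In Mylip and Pltp they mark TATAAA.
Abca1: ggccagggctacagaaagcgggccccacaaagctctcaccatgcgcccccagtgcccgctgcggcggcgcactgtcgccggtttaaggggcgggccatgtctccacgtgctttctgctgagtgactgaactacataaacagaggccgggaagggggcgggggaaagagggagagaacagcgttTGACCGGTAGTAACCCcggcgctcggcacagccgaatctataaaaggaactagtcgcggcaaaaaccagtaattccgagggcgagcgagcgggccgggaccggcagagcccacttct
Mylip: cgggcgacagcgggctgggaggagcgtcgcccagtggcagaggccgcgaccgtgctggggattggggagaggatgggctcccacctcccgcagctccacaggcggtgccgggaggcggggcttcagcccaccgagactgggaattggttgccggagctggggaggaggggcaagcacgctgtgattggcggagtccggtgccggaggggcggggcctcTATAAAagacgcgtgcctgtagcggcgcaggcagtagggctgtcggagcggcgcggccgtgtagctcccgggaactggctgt
Pltp: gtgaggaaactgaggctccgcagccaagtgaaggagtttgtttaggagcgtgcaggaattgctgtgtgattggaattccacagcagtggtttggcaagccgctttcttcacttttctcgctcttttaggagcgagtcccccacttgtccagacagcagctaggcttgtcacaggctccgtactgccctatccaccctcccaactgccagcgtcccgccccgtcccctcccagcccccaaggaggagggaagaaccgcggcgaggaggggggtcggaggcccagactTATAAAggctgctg
The match in Abca1 began at -67 and held 3 mismatches, a closeness found on either strand in the promoters of 24.5% of 27025 genes. The best matches in Mylip and Pltp had 5 mismatches. Abca1 also held 1 CACGTG, a motif found in 8.09% of genes. TATAAA, found in 15.7% of genes, began at -29 in Abca1, at -32 in Mylip and at 36 in Pltp. None of the 7 genes with a promoter in the table held an exact AGGTCA, against 18.1% of all genes.

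Abca1 was lowest at 395, median 573 and highest 916 CPM at P6, 165, 428 and 483 at P15, and 297, 472 and 627 at 8 weeks. P15 male 1, at 165 CPM, was the lowest mouse of any age and P6 male 5, at 916 CPM, the highest. The level fell by 0.49 ± 0.15 on the log2 scale from P6 to P15 (adjusted p = 0.00432), with 4 of 12 P15 mice below every P6 mouse. Without P15 male 1 and without P6 male 5 in turn the gene stayed called. With the endothelial covariate the change was -0.36 (adjusted p = 0.0732), and with the neural marker covariate it was -0.85 and called. At 8 weeks Abca1 was 0.26 ± 0.14 above P15 (adjusted p = 0.114) and -0.23 ± 0.15 relative to P6 (adjusted p = 0.157), neither called. Leaving out 8-week male 4, the lowest mouse of its age, gave a rise of 0.33 from P15 that was called (adjusted p = 0.0320), leaving out P15 male 1 gave 0.17, not called, and scaling by library size alone gave a called fall of -0.35 from P6 (adjusted p = 0.0252). The change from P6 to 8 weeks was -1.07 with the neural marker covariate (adjusted p = 0.0035).

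ABCG1 passes cholesterol to particles that already carry lipid. Abcg1 (chr17:31057675-31117988, plus strand) was lowest at 148, median 177 and highest 265 CPM at P6, 123, 177 and 259 at P15, and 169, 206 and 310 at 8 weeks. The 3 ranges overlapped almost wholly, and the top value came from 8-week male 4. No contrast was called, with changes of -0.01 ± 0.11 from P6 to P15 (adjusted p = 0.945), 0.20 ± 0.10 from P15 to 8 weeks (adjusted p = 0.107) and 0.19 ± 0.11 from P6 to 8 weeks (adjusted p = 0.115). The 95% interval of the last change ran from -0.02 to 0.41. Leaving out P6 male 5 gave 0.24 (adjusted p = 0.0430), and including P6 female 6 gave 0.24 (adjusted p = 0.0434). The step from P15 to 8 weeks was called under scaling by library size alone (0.20, adjusted p = 0.0385). With the neural marker covariate Abcg1 was called lower in every contrast, at -0.50 from P6 to P15 (adjusted p = 9.34e-07), -0.44 from P15 to 8 weeks (adjusted p = 1.15e-04) and -0.94 from P6 to 8 weeks (adjusted p = 3.91e-07).

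Abca1 stood in a higher proportion to Abcg1 at P6 than at the later ages. Within each mouse the log2 ratio of Abca1 to Abcg1 averaged 1.62 ± 0.22 at P6 (SD, n = 10), 1.10 ± 0.41 at P15 (n = 12) and 1.15 ± 0.47 at 8 weeks (n = 12). It dropped by 0.52 from P6 to P15 (two-sided permutation test, p = 0.00196, adjusted over 15 comparisons of ratios p = 0.00368), and 9 of 12 P15 mice lay below every P6 mouse. From P6 to 8 weeks it dropped by 0.48 (permutation p = 0.00356, adjusted p = 0.00593), with 6 of 12 mice below every P6 mouse, 8-week male 4 being the lowest at -0.06. From P15 to 8 weeks it changed by 0.04 (permutation p = 0.814, adjusted p = 0.825). The ratio of Nr1h3 to Nr1h2 was -5.31 ± 0.57 at P6, -4.91 ± 0.54 at P15 and -4.85 ± 0.40 at 8 weeks. None of its differences passed the adjustment, with an adjusted p of 0.0504 by permutation from P6 to 8 weeks, or 0.0145 without P6 female 2.

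**Figure D2:**
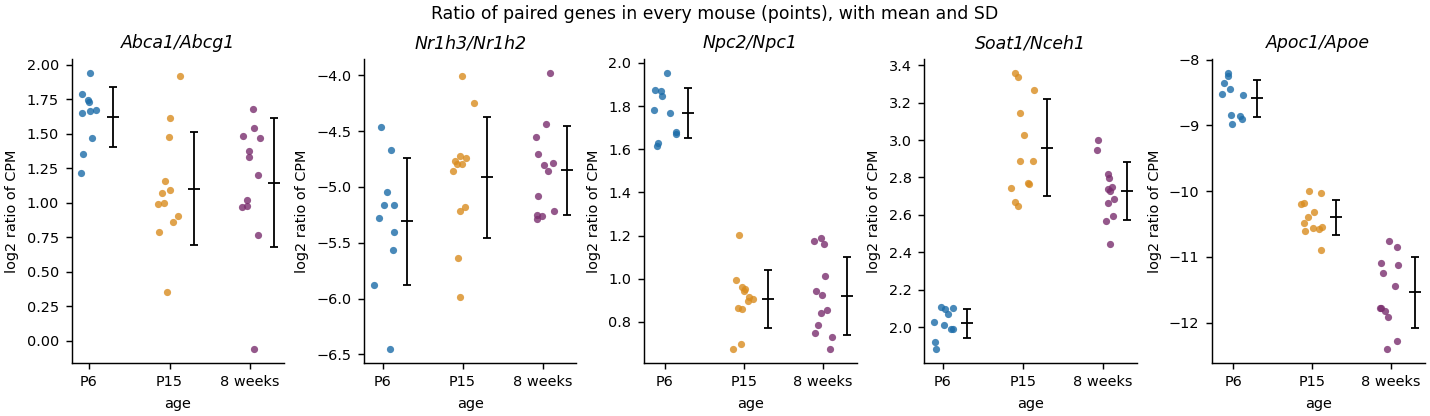
Log2 ratio of CPM for 5 pairs of genes in each of 34 mice (points) by age, with the mean and SD (bars). The ratio of Npc2 to Npc1 sat between 1.61 and 1.95 at P6 and between 0.68 and 1.20 at P15, and that of Soat1 to Nceh1 rose from 2.02 to 2.96.

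NPC2 is a soluble lysosomal protein that hands cholesterol to NPC1 in the lysosomal membrane, and the pair works as one export route. Npc1 (chr18:12189692-12236400, minus strand) was lowest at 161, median 194 and highest 256 CPM at P6, 236, 327 and 433 at P15, and 276, 318 and 383 at 8 weeks. Every 8-week mouse and 11 of 12 P15 mice lay above every P6 mouse. The rise was 0.76 ± 0.09 from P6 to P15 (adjusted p = 1.03e-08), a 1.70-fold change, and the level at 8 weeks differed from P15 by -0.03 ± 0.08 (adjusted p = 0.763). Npc1 therefore stood 0.73 ± 0.09 above P6 at 8 weeks (adjusted p = 1.19e-08). With the neural marker covariate that difference was -0.05 (adjusted p = 0.798), while the rise to P15 was 0.43 and stayed called and the step from P15 to 8 weeks was a called -0.48 (adjusted p = 4.98e-05).

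Npc2 (chr12:84754562-84773152, minus strand) was lowest at 501, median 638 and highest 836 CPM at P6, 377, 619 and 862 at P15, and 494, 572 and 854 at 8 weeks. The ranges of the 3 ages lay over each other. Its changes were -0.09 ± 0.11 from P6 to P15 (adjusted p = 0.488) and -0.10 ± 0.11 from P6 to 8 weeks (adjusted p = 0.391), the latter with a 95% interval from -0.32 to 0.11. It was called lower at 8 weeks than at P6 under library size alone (-0.25, adjusted p = 0.0049), with the neural covariate (-0.96, adjusted p = 4.53e-05) and with an index of long against short transcripts as a covariate (-0.28, adjusted p = 4.84e-05). The same 3 fits called it lower at P15 than at P6, at -0.22 (adjusted p = 0.0127), -0.46 (adjusted p = 3.96e-04) and -0.19 (adjusted p = 0.00317), and the neural covariate also from P15 to 8 weeks (-0.51, adjusted p = 0.00103). The ratio of Npc2 to Npc1 was lower in all later mice. Its log2 value was 1.77 ± 0.12 at P6 (SD, n = 10), 0.91 ± 0.14 at P15 (n = 12) and 0.92 ± 0.18 at 8 weeks (n = 12). All 12 mice of each later age lay below every P6 mouse (permutation p = 1e-05, the smallest 100000 resamples can give, adjusted p = 2.5e-05), while P15 and 8 weeks differed by 0.01 (permutation p = 0.825).

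SOAT1 esterifies cholesterol in the endoplasmic reticulum, and NCEH1 is a hydrolase that releases it again. Soat1 (chr1:156424525-156474331, minus strand) was lowest at 105, median 119 and highest 172 CPM at P6, 91.1, 139 and 154 at P15, and 134, 148 and 170 at 8 weeks. P6 male 5 held the highest value of all ages and P15 male 1 the lowest. The gene rose by 0.29 ± 0.08 from P6 to 8 weeks (adjusted p = 0.0012), a 1.22-fold change. That call ended and the sign turned with the neural marker covariate (-0.19, adjusted p = 0.297). The difference at P15, 0.14 ± 0.08 (adjusted p = 0.102), was not called but was so without P15 male 1 (0.19, adjusted p = 0.0116), without P6 male 5 (0.19, adjusted p = 0.0167) or with P6 female 6 (0.19, adjusted p = 0.0418). The step from P15 to 8 weeks, 0.14 ± 0.07 (adjusted p = 0.0973), was called without 8-week male 4 (0.16, adjusted p = 0.0414) and with the compared groups alone (0.16, adjusted p = 0.0463), but was 0.08 and not called without P15 male 1. The log2 ratio of Soat1 to Nceh1 was 2.02 ± 0.08 at P6 (SD, n = 10), 2.96 ± 0.26 at P15 (n = 12) and 2.73 ± 0.16 at 8 weeks (n = 12). Every mouse of the later ages lay above every P6 mouse (permutation p = 1e-05, adjusted p = 2.5e-05 for both), and the ratio was 0.23 lower at 8 weeks than at P15, a change of -0.23 (permutation p = 0.0152, adjusted p = 0.0229).

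Mylip encodes IDOL, a ubiquitin ligase induced by LXR that marks lipoprotein receptors for degradation. Mylip (chr13:45389742-45412022, plus strand) was lowest at 47.2, median 64.1 and highest 123 CPM at P6, 92.1, 177 and 229 at P15, and 219, 322 and 348 at 8 weeks. Every 8-week mouse lay above every P6 mouse, and 11 of 12 P15 mice did so, the exception being P15 male 1. It rose by 1.30 ± 0.15 from P6 to P15 (adjusted p = 7.44e-09), by 0.81 ± 0.14 from P15 to 8 weeks (adjusted p = 1.94e-05) and by 2.11 ± 0.16 in all (adjusted p = 1.59e-13), which is 4.32-fold. For a change beyond 2-fold the adjusted p was 2.10e-08 from P6 to 8 weeks and 0.0574 from P6 to P15. The latter was called with all 35 mice, without P15 male 1 and without P6 male 5. The microglial markers moved with it, since all 8 rose from P6 to 8 weeks with a median change of 1.56. Their part in the rise of Mylip was not tested. With the neural marker covariate Mylip rose by 0.80 from P6 to 8 weeks and by 0.75 from P6 to P15, both called but under 2-fold, and by 0.05 from P15 to 8 weeks (adjusted p = 0.826).

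APOC1 is a small apolipoprotein that limits lipoprotein uptake, and its gene lies in the cluster that holds Apoe. Apoc1 (chr7:19689481-19692660, minus strand) was lowest at 8.17, median 12.9 and highest 20.6 CPM at P6, 2.12, 2.96 and 5.00 at P15, and 0.406, 0.809 and 1.78 at 8 weeks. No 2 ages overlapped. The lowest mouse had 12 counts, above the floor of 3. Apoc1 fell by 2.06 on the log2 scale from P6 to P15 (SE 0.18, adjusted p = 2.80e-11), changed by -1.86 from P15 to 8 weeks (SE 0.19, adjusted p = 1.84e-09) and by -3.93 from P6 to 8 weeks (SE 0.20, adjusted p = 1.26e-17), in all 15.2-fold. It was called past 2-fold in each of the 3 contrasts, and it was the only one of the 10 genes of which this was so. The neural marker covariate ended the call past 2-fold from P15 to 8 weeks, where Apoc1 was still called lower. Over all alternatives run, its change from P6 to 8 weeks lay between -4.06 and -3.42.

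The fall of Apoc1 was larger than that of Apoe. The log2 ratio of Apoc1 to Apoe was -8.59 ± 0.28 at P6 (SD, n = 10), -10.4 ± 0.27 at P15 (n = 12) and -11.5 ± 0.54 at 8 weeks (n = 12). It dropped by 1.81 from P6 to P15 and by 2.95 from P6 to 8 weeks, with all 12 later mice below every P6 mouse (permutation p = 1e-05, adjusted p = 2.5e-05). From P15 to 8 weeks it dropped by 1.14 (permutation p = 2e-05, adjusted p = 4.29e-05), with 10 of 12 mice below every P15 mouse. Apoe itself changed by -0.89 ± 0.13 from P6 to 8 weeks.

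PLTP moves phospholipid between lipoproteins and onto nascent particles. Pltp (chr2:164839518-164857711, minus strand) was lowest at 41.1, median 59.5 and highest 78.1 CPM at P6, 48.6, 102 and 151 at P15, and 74.3, 100.5 and 158 at 8 weeks. At 8 weeks 11 of 12 mice, and at P15 9 of 12, lay above every P6 mouse. It rose by 0.71 ± 0.15 from P6 to P15 (adjusted p = 1.56e-04) and by 0.89 ± 0.15 from P6 to 8 weeks (adjusted p = 4.71e-06), with 0.18 ± 0.14 between P15 and 8 weeks (adjusted p = 0.303). With the endothelial covariate the change from P6 to 8 weeks was 0.23 (adjusted p = 0.0890) and no longer called, and that from P6 to P15 was 0.27. The mean log2 CPM of those markers, 3.29 ± 0.59 at P6 (SD, n = 10), 4.14 ± 0.62 at P15 (n = 12) and 4.53 ± 0.48 at 8 weeks (n = 12), moved with Pltp.

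**Figure D3:**
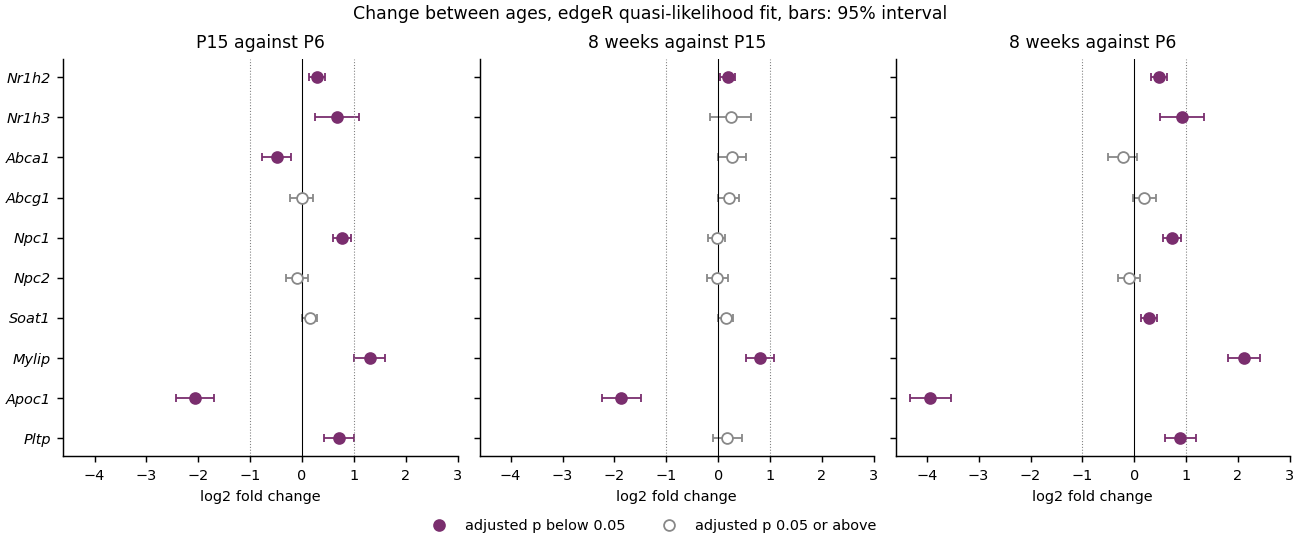
Log2 fold change of each gene (points, filled where the adjusted p was below 0.05) with its 95% interval (bars), for P15 against P6, 8 weeks against P15 and 8 weeks against P6. Dotted lines mark a 2-fold change, beyond which the points of Apoc1 lie in all 3 panels and those of Mylip in the first (1.30) and the last (2.11).

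Per kilobase of exon, which allows genes to be compared, Npc2 ranked first at each age, at 121 ± 19.1 CPM per kb at P6, 113 ± 22.9 at P15 and 112 ± 19.6 at 8 weeks. At P6 Abca1 came next with 56.5 ± 15.04, and the levels of Npc2, Abca1 and Abcg1 did not overlap. Abcg1, Nr1h2, Mylip, Pltp, Apoc1, Npc1 and Soat1 followed between 25.6 and 12.7, each overlapping the next, and Nr1h3 was last at 0.793 ± 0.269. At 8 weeks Mylip, at 94.7 ± 13.2, had moved up to the level next below Npc2, with overlap, and stood above Abca1 (45.8 ± 10.8) in every mouse. Pltp, Nr1h2, Abcg1 and Npc1 lay between 42.4 and 28.1 and overlapped, and Soat1 at 15.4 ± 1.13 lay below them without overlap. Apoc1 had dropped to 1.20 ± 0.54 and overlapped Nr1h3 at 1.53 ± 0.51. With the length of the longest transcript in place of all exons, 17 of 30 levels moved by more than the SD. At 8 weeks Npc2 and Mylip kept their ranks, whereas Npc1 moved from rank 7 to rank 3 and Abca1 from 3 to 6. At P6 Npc1 moved from 8 to 4, Abcg1 from 3 to 5 and Mylip from 5 to 8, so the order of the middle ranks depends on the length used.

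Males and females were compared at each age. None of the 10 genes was called at any age, where 0.0511%, 0.0681% and 0.114% of all genes were called at P6, P15 and 8 weeks. At an unadjusted p below 0.05 there were 2 genes at P6 (Abca1, higher in males by 0.53 ± 0.22, and Mylip, by 0.51 ± 0.22), 1 at P15 (Pltp, higher in males by 0.67 ± 0.20) and 1 at 8 weeks (Apoc1, lower in males, at -0.73 ± 0.27), beside 1250, 3200 and 518 of all 17612 genes. limma-voom and DESeq2 also called 0. No interaction of sex and age was called for these genes by any of the 3 tools, with 2, 1 and 0 genes at an unadjusted p below 0.05 for P15 against P6, 8 weeks against P15 and 8 weeks against P6, beside 3593, 601 and 898 of all genes. Over all genes, edgeR and limma-voom called 0 interactions, and DESeq2 called 58 higher and 87 lower for P15 against P6 and 2 higher for 8 weeks against P15.

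To ask which of the genes vary together beyond age, each mouse's log2 CPM was taken as a deviation from the mean of its age. Over the 34 mice, 45 pairs of the genes and their relation to 14 marker lists and the index of transcript length gave 195 correlations, each tested by 100000 permutations within ages and adjusted over all 195. Of the 45 pairs, 15 were positively and 3 negatively correlated at an adjusted p below 0.05 for Pearson's r. No share of called pairs over all genes is given beside this count. It therefore does not set these genes apart from others. Abcg1, Npc1, Npc2 and Nr1h2 were positively related in each pair, with r from 0.58 (Abcg1 and Nr1h2) to 0.87. Abcg1 and Npc1 gave r = 0.87 and Spearman's rho = 0.82 (both permutation p = 1e-05, adjusted p = 1.03e-04 and 1.30e-04), with 0.81 when the 2 mice farthest from the median of Npc1 were left out. Npc1 and Npc2 gave r = 0.82 and rho = 0.74 (permutation p = 1e-05 for both, adjusted p = 1.03e-04 and 1.30e-04), and 0.74 without the 2 farthest mice. Mylip and Abcg1 gave r = 0.77 and rho = 0.74 (permutation p = 1e-05 for both, adjusted p = 1.03e-04 and 1.30e-04), and 0.69 without the 2 farthest mice.

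Abca1 and Nr1h3 moved in opposite directions. Their correlation was r = -0.72 (permutation p = 3e-05, adjusted p = 2.66e-04) and rho = -0.61 (permutation p = 3.8e-04, adjusted p = 0.00256), and r was -0.61 without 8-week male 4 and P15 male 1. Within ages r was -0.50 at P6, -0.84 at P15 and -0.78 at 8 weeks. The 2 genes also differed in their relation to the microglial markers. Abca1 followed these markers at r = 0.62 and Nr1h3 ran against them at r = -0.51 (adjusted permutation p = 0.0016 and 0.0115). Without P15 male 1 and P6 male 5 these were 0.40 and -0.27. The part of cell makeup in the relation of Abca1 and Nr1h3 was not tested. Abca1 also ran against Pltp, with r = -0.58 and rho = -0.52 (permutation p = 5.2e-04 and 0.00235, adjusted p = 0.00254 and 0.0107), and r = -0.58 without the 2 farthest mice. The third negative pair, Soat1 with Nr1h3, rested on P15 male 1 and P6 male 5, since r went from -0.47 (permutation p = 0.00984, adjusted p = 0.0264) to -0.08 without them, and its rho was -0.24 (permutation p = 0.183, adjusted p = 0.317). Pltp and Nr1h3 were positively related, at r = 0.62 and rho = 0.65 (permutation p = 1e-04 and 6e-05, adjusted p = 7.22e-04 and 5.32e-04), with 0.66 without the 2 farthest mice. Apoc1 passed the adjustment with none of the other 9 genes, its largest r being -0.35 with Abca1 (adjusted p = 0.0826, permutation).

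Marker levels moved with many of these deviations. Mylip followed the microglial markers at r = 0.89 and rho = 0.88 (permutation p = 1e-05, adjusted p = 1.03e-04 and 1.30e-04), with 0.84 without P15 male 1 and P6 male 5, and with r of 0.89, 0.95 and 0.88 within the ages. Abcg1 followed them at r = 0.84 and rho = 0.78 and ran against the neural progenitor markers at r = -0.87 and rho = -0.85 (permutation p = 1e-05 each, adjusted p = 1.03e-04 and 1.30e-04), with 0.79 and -0.83 without the 2 farthest mice. Its r with the microglial markers was 0.93 at P6, 0.96 at P15 and only 0.32 at 8 weeks. Abcg1 also followed the markers of border-associated macrophages at r = 0.73 and rho = 0.62 (adjusted permutation p = 1.03e-04 and 0.00163). Mylip, Npc1 and Npc2 also ran against the neural progenitor markers, at r = -0.80, -0.81 and -0.76 and rho = -0.82, -0.76 and -0.73 (permutation p of 1e-05 or 2e-05, adjusted p of 2.05e-04 or less), with -0.80, -0.75 and -0.69 without the 2 farthest mice. Pltp followed the endothelial markers at r = 0.83 and rho = 0.81 (permutation p = 1e-05, adjusted p = 1.03e-04 and 1.30e-04), with 0.81 without the 2 farthest mice. Nr1h3 followed the markers of pericytes and fibroblasts at r = 0.66 and rho = 0.68 (permutation p = 3e-05 and 1e-05, adjusted p = 2.66e-04 and 1.30e-04), with 0.58 without the 2 farthest mice. This was not particular to that list. Nr1h3 also followed the markers of the oligodendrocyte lineage (r = 0.62), astrocytes (0.61), ependyma and choroid plexus (0.58) and endothelial cells (0.47), each at an adjusted permutation p of 0.0212 or less. It ran against the microglial markers, as given above. Abca1 ran against the markers of the oligodendrocyte lineage at r = -0.66 and rho = -0.56 (permutation p = 8e-05 and 8.5e-04, adjusted p = 6e-04 and 0.00502), with -0.54 without P15 males 1 and 5.

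The genes of the response to dissociation correlated with Abcg1 at r = 0.50 and rho = 0.44 (permutation p = 0.0053 and 0.0115, adjusted p = 0.0163 and 0.0336), with Npc2 at r = 0.47 and rho = 0.40 (permutation p = 0.00902 and 0.0235, adjusted p = 0.0248 and 0.0636) and with Nr1h2 at r = 0.45 and rho = 0.46 (permutation p = 0.0115 and 0.00941, adjusted p = 0.0296 and 0.0287). Without P15 male 6 and P6 female 5, r was 0.39, 0.38 and 0.43.

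A measure over all genes moved with some of them as strongly, and what sets it was not tested. The index of transcript length, the mean log2 level of genes in the top quartile of transcript length less that of genes in the bottom quartile, was lowest in 8-week male 4 at -0.56 and highest in P15 female 2 at 0.50. It correlated with Npc2 at r = -0.89 and rho = -0.87 and with Nr1h2 at r = -0.84 and rho = -0.81 (permutation p = 1e-05, adjusted p = 1.03e-04 and 1.30e-04), with -0.84 and -0.79 without the 2 farthest mice. It also ran against Npc1 at r = -0.64 and rho = -0.58 (permutation p = 7e-05 and 4.2e-04, adjusted p = 5.46e-04 and 0.00273) and Abcg1 at r = -0.58 and rho = -0.48 (permutation p = 9.1e-04 and 0.00566, adjusted p = 0.00355 and 0.0201), with -0.53 and -0.38 without the 2 farthest mice. The relation with Abca1 was r = 0.46 and rho = 0.36 (permutation p = 0.00989 and 0.0410, adjusted p = 0.0264 and 0.0964), and r = 0.37 without the 2 farthest mice. That with Pltp was r = -0.51 and rho = -0.36 (permutation p = 0.0055 and 0.0490, adjusted p = 0.0164 and 0.110), and r = -0.31 without the 2 farthest mice. The part of this index in the relations among the genes was not tested.

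**Figure D4:**
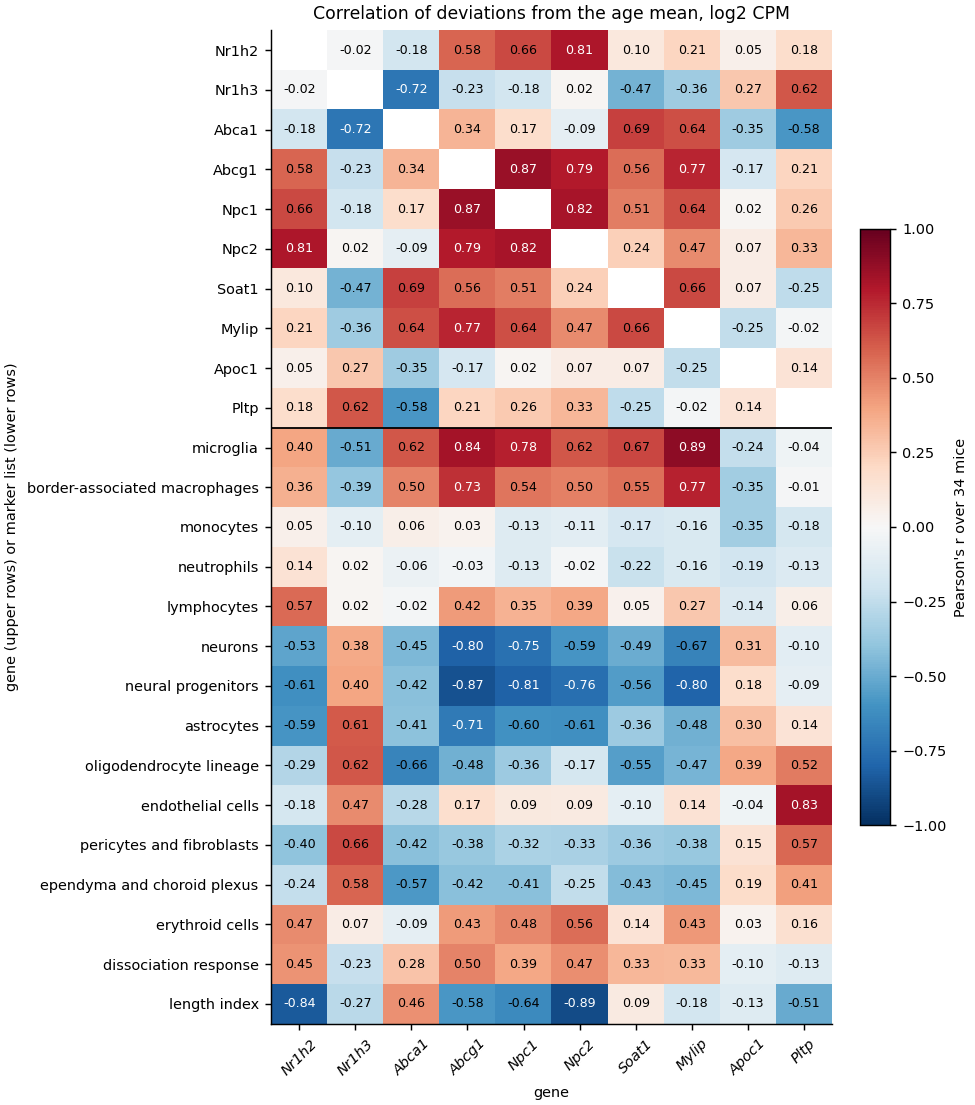
Pearson's r between deviations from the age mean (log2 CPM, 34 mice) for each pair of the 10 genes (upper rows) and between each gene and each marker list or the length index (lower rows), red for positive and blue for negative. Abcg1, Npc1, Npc2 and Nr1h2 share red cells, Abca1 is blue with Nr1h3 and Pltp, and Apoc1 is pale throughout.

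**Figure D5:**
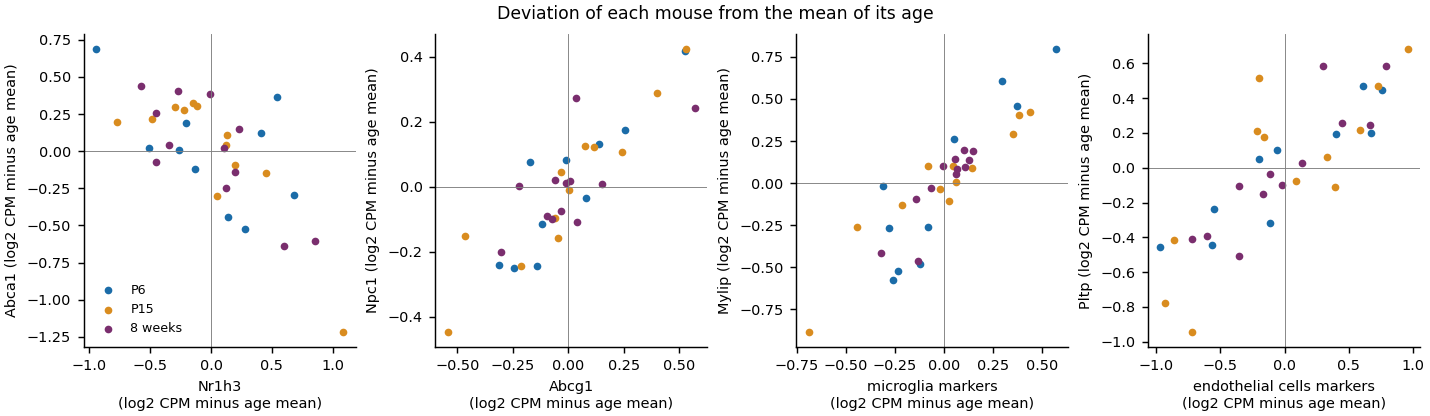
Deviation of each mouse from the mean of its age (log2 CPM, colours for ages) for Abca1 against Nr1h3, Npc1 against Abcg1, Mylip against microglial markers and Pltp against endothelial markers. Abca1 goes down as Nr1h3 goes up (r = -0.72), with P15 male 1 at the lower right, and the other 3 panels rise.

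Across all 34 mice, ages included, the genes whose log2 CPM was most like each member's were named as a description, out of all genes tested with a gene symbol of their own. For Apoc1 they were E2f1, Kifc1 and Foxm1 (r = 0.972, 0.971 and 0.971). For Mylip they were Lair1, Siglech and Rhobtb1 (r = 0.985, 0.982 and 0.982), and for Npc1 Csf1r, Fmnl3 and Rtn4rl1 (r = 0.985, 0.985 and 0.984). Abca1 was most like Dnajc13, Pign and Kif16b (r = 0.949, 0.943 and 0.942), and Pltp most like Vwa1, Ly6c1 and Cd151 (r = 0.908, 0.900 and 0.876). Soat1 had no gene as close, with Ptprj, Anxa3 and Zmpste24 at r = 0.858, 0.853 and 0.848. These mice share their age and library makeup, so no p is given.

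Other genes of the pathway were read from lists. Of 13 RXR partners and coregulators of LXR, 5 rose and 2 fell from P6 to 8 weeks, with a median change of 0.13 beside 0.04 for all genes tested, of which 37.8% rose and 36.6% fell. With the neural marker covariate 2 of the 13 rose and 6 fell. The coactivators Ncoa2 and Ncoa3 rose by 0.73 ± 0.13 and 0.63 ± 0.11, Tbl1xr1, which exchanges corepressors, by 0.74 ± 0.14, and the corepressor enzyme Hdac3 changed by -0.71 ± 0.06. Rxra, the common partner of LXR, changed by 0.13 and was not called. Under the neural covariate Ncoa3 was called lower (-0.43, adjusted p = 0.0224), as was Rxra (-0.70, adjusted p = 9.75e-05), while Ncoa2 (0.31, adjusted p = 0.423) and Tbl1xr1 (0.15, adjusted p = 0.701) lost their calls and Hdac3 kept its own. Of 16 further LXR targets, 14 were tested, 8 rose and 4 fell, with a median of 0.25, beside the same shares over all genes. Leaving out P6 female 1 or P6 female 2 alone took the number that rose to 5. Tgm2, a transglutaminase, rose from 9.68 ± 2.05 CPM (SD, n = 10) to 170 ± 35.1 (n = 12), a log2 fold change of 4.18 ± 0.13, and Mertk, a receptor for dead cells, rose by 2.11 ± 0.15. Lpl, the lipase that frees fatty acids from lipoproteins, changed by -3.48 ± 0.13 and Cd5l, a secreted macrophage protein, by -2.03 ± 0.20. These 4 genes kept their sign and call with the neural covariate, Mertk at 0.94.

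Of 12 genes for sterol storage and oxysterol enzymes, 7 rose and 3 fell, with a median of 0.81, beside 37.8% and 36.6% of all genes. Soat2, the other esterifying enzyme, rose by 3.38 ± 0.29 from a low 0.682 ± 0.178 CPM (SD, n = 10) to 6.95 ± 2.71 (n = 12). Cyp27a1, which makes 27-hydroxycholesterol, rose by 1.90 ± 0.12, and Lcat, the plasma esterifying enzyme, by 2.71 ± 0.32. Plin2, the coat protein of lipid droplets, changed by -2.70 ± 0.10, and Nceh1 by -0.41 ± 0.09. The neural covariate ended the call of Nceh1 alone among these 5 (-0.46, adjusted p = 0.0615), and gave 1.99 for Soat2, 0.90 for Cyp27a1 and 5.02 for Lcat. Of 20 genes for sterol transport inside the cell, 9 rose and 7 fell, with a median of 0.20, again beside 37.8% and 36.6% of all genes, and the number that rose was 3 with the neural covariate. Stard3, which binds cholesterol at the late endosome, rose by 1.18 ± 0.10, while Stard4, a soluble sterol carrier, changed by -1.92 ± 0.13 and the oxysterol-binding relatives Osbpl5 and Osbpl6 by -1.38 ± 0.25 and -1.17 ± 0.29. Under the neural covariate Osbpl6 was called higher (2.01, adjusted p = 5.99e-06) and Osbpl5 turned to 0.93 (adjusted p = 0.0537), whereas Stard3 (0.43) and Stard4 (-1.10) kept sign and call.

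Genes for making and taking up cholesterol mostly fell. Of 23, 2 rose and 17 fell from P6 to 8 weeks, with a median of -0.98, beside 37.8% and 36.6% of all genes, and with all 35 mice 1 rose. Cyp51 (-1.72 ± 0.15), Sqle (-1.62 ± 0.23) and Hmgcs1 (-1.42 ± 0.15), enzymes of sterol synthesis, were among those that fell the most. With the neural marker covariate, 8 genes of this list rose and 1 fell, against 2 and 17 without it, Sqle was called higher (0.71, adjusted p = 0.0484), and Cyp51 (-0.17, adjusted p = 0.432) and Hmgcs1 (0.15, adjusted p = 0.601) were not called. The summed level of the neural progenitor markers dropped over the same ages as given above.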

How the data were processed

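The authors isolated CD45+ microglia by immunopanning, prepared directional libraries, trimmed reads with fastp 0.20.0, aligned them to GRCm38/mm10 with STAR and counted fragments on genes by strand with featureCounts (Subread). They deposited raw counts per gene, unfiltered, for 55401 identifiers in 35 mice. The release of the gene annotation is not given in the sources used here. Names, coordinates and lengths come from GENCODE M21 on GRCm38, which matched 55141 identifiers. Promoters come from a set built on RefSeq starts for 27025 genes, and that set held 7 of the 10 genes.

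Groups were set by the labelled age and sex. Each mouse gave 1 library. The labels name no batch. P6 female 6, taken as the mouse that the authors removed as an outlier, was left out, and the other 34 mice were fitted together. The filter kept 17612 genes, those at 0.5 CPM or more in 5 or more mice. Counts were scaled by TMM and tested with glmQLFit (robust) and glmQLFTest in edgeR 4.0.16 (R 4.3.3), with 1 mean for each of 6 groups of age and sex. Age contrasts average the sexes, and glmTreat tested changes beyond 2-fold. P-values were adjusted by Benjamini-Hochberg over all genes. Log2 CPM used a prior count of 2. Ratios and correlations were tested with 100000 two-sided permutations in Python 3.11.15 (numpy 2.4.6, pandas 2.3.3, scipy 1.17.1), and plotted with matplotlib 3.10.9. The fit was tested on simulated data first.

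The members are set by name, and they and the lists were chosen with earlier results of these data known. Beyond the 10 genes the text names Nceh1 and Apoe, up to 4 genes per list with the largest called change from P6 to 8 weeks, and the 3 genes most like a member. Rxra was named for its role, after its values were seen, and a gene within the rule is not reported here. Alternatives were all 35 mice, library size alone, DESeq2 size factors, limma-voom (limma 3.58.1), DESeq2 1.42.0, no filter, at least 10 counts in every mouse, the compared groups alone, age without sex, a replicate block, neural markers as a covariate, leaving out each P6 female in turn, a prior count of 0.5 and transcript length. Chosen after the data were seen were covariates for transcript length and endothelial markers and leaving out P15 male 1, 8-week female 1, 8-week male 4 or P6 male 5. No 2 libraries of a group agreed within sampling noise (81 pairs, chi-square per gene of at least 12.7). Intervals and floors cover counting error or the spread between mice alone.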

Additional observations from a re-analysis of the deposited data

Results flagged for a closer look

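In 60 sets of values, 10 genes in 6 groups of age and sex, 3 values, in 2 mice, stood apart from the others of their group by a gap beyond the 95% limit of Dixon's test. Chance alone flags about 1 in 20 sets. In 8-week male 4 Abcg1 was at 310 CPM, against 195 to 231 in the other 8-week males, and Npc1 at 375 CPM, against 294 to 319. In P15 male 1 Soat1 was at 91.1 CPM, against 132 to 154 in the other P15 males. These mice also held the lowest values of the transcript length index at their ages, -0.56 and -0.38. The part of that index in these values was not tested.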

How the results depend on the processing

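Ranges with 1 mouse left out cover 8 mice, P6 females 1, 2, 3 and 5, P6 male 5, P15 male 1, 8-week female 1 and 8-week male 4, and for ratios the same without 8-week female 1. Counts of the genes called between ages changed by over 1.5 times as follows. From P6 to P15 the number that fell was 2, and it was 4 with the neural marker covariate and 1 with the endothelial one. From P15 to 8 weeks the number that rose was 2, and it was 1 with DESeq2 size factors or no filter (Mylip), 1 with the neural covariate (Nr1h3, at 0.85, while Nr1h2 and Mylip lost their calls) and 1 to 3 with 1 mouse left out, while the number that fell was 1 and became 4 with the neural covariate. From P6 to 8 weeks 6 rose, or 3 with the neural covariate (Nr1h3, Mylip and Pltp), and 1 fell, or 3 under library size alone, 4 with the neural covariate and 2 with the length index. Past 2-fold, 0 rose from P6 to P15, or 1 (Mylip) with all 35 mice and 0 to 1 with 1 mouse left out (Mylip, without P15 male 1 or P6 male 5), and 1 fell from P15 to 8 weeks, or 0 with the neural covariate. From P6 to 8 weeks 1 rose past 2-fold in either fit, but with the neural covariate this was Nr1h3 and not Mylip.

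Between P6 and 8 weeks the LXR partners that rose went from 5 to 2 with the neural covariate, and those that fell from 2 to 4 under library size alone and 6 with the neural covariate. Further LXR targets that rose went from 8 to 5 under library size alone or with the endothelial covariate, and ranged from 5 to 8 with 1 mouse left out (5 without P6 female 1 or 2). Sterol transport genes that rose went from 9 to 3 with the neural covariate. Synthesis genes that rose went from 2 to 1 with all 35 mice, library size alone, no filter, at least 10 counts in every mouse or the endothelial covariate, to 8 with the neural covariate, and ranged from 1 to 2 with 1 mouse left out (1 without P6 female 1, 2 or 3, 8-week female 1 or 8-week male 4), and those that fell went from 17 to 1 with the neural covariate.

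The sign turned with the neural covariate for Nr1h2 (-0.11 from P15 and -0.029 from P6 to 8 weeks), Abca1 (-0.22 from P15 to 8 weeks), Abcg1 (-0.44 and -0.94), Npc1 (-0.046 from P6 to 8 weeks) and Soat1 (-0.058 from P6 to P15, -0.13 and -0.19 to 8 weeks). It turned for Abcg1 from P6 to P15, near 0, with all 35 mice (0.0335), the compared groups alone (0.0134), without P15 male 1 (0.0400) and without P6 male 5 (0.0408), with a range of -0.0369 to 0.0408 when 1 mouse was left out, and for Pltp from P15 to 8 weeks with the endothelial covariate (-0.042). Ratios of Abca1 to Abcg1 and Npc2 to Npc1 between P15 and 8 weeks turned to -0.0246 without P15 male 1 and -0.0100 without 8-week male 4, in ranges of -0.0246 to 0.154 and -0.0100 to 0.0412. That of Nr1h3 to Nr1h2 from P6 to 8 weeks was called at 0.47 with a prior count of 0.5 and ranged from 0.33 to 0.55 with 1 mouse left out. The cause was not tested.

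Same-numbered mice of different groups were not treated as pairs. Their deviations had a median correlation of 0.03 over 80 pairs, 27 of them over 0.1. Mice with other numbers had a median of -0.01 over 400 pairs, 118 of them over 0.1. A pairing or batch that does not follow the numbers was not checked. With the replicate block 6 genes rose and 1 fell from P6 to 8 weeks, as without it. Sex calls stayed at 0 in the alternatives that tested sex, which leave out the 3 covariates and the fit of age without sex, and interactions were not tested in the compared groups alone. Nr1h3 and Apoc1 had the fewest counts, so their levels are the least precise.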
